A study of Mus musculus and Bos taurus with 2 samples.

Results

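The BAF complex (mammalian SWI/SNF) was described through 10 of its subunit genes: the ATPases Smarca4 and Smarca2, the core subunits Smarcc1, Smarcc2, Smarcb1, Smarcd1 and Smarce1, and the ARID subunits Arid1a, Arid1b and Arid2. The members were all transcript models that carried one of these gene names, ignoring case. Their class code (the relation of a model to a reference transcript) also had to place them on the gene's own strand with shared exon sequence. This gave 30 models of all 10 genes among 31354 such sense models of 14090 named genes in mouse, and 31 models of all 10 genes among 33163 of 13374 named genes in cattle.

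The mouse library came from late 2-cell embryos of the Slc:ICR stock, made by in vitro fertilization of superovulated oocytes and cultured in KSOM until 36 h. The bovine library came from 8-cell to 16-cell embryos collected at 72 h, from in vitro matured oocytes fertilized with sperm of a Japanese Black bull; the oocyte donors were Japanese Black cattle or F1 crosses with Holstein. About 200 in vitro produced embryos were pooled for each library, polyadenylated RNA was read as PCR-amplified cDNA (14 cycles) on a nanopore sequencer, and both libraries carry batch 1 in the labels. Each species had 1 library, so the values carry no replicate error and the species were not tested against each other. Species, stage, hours and reference annotation differed together and cannot be told apart. The files give transcript structures without read counts. A number of models is therefore a number of assembled structures, not an abundance, and the depth behind each is unknown.

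The BAF complex uses the energy of ATP to slide or evict nucleosomes and so opens promoters and enhancers. Each complex holds a single ATPase, either SMARCA4 (BRG1) or SMARCA2 (BRM), on a core built around SMARCC1 and SMARCC2, and it is completed by ARID1A or ARID1B in canonical BAF or by ARID2 in PBAF. In the mouse, maternal Smarca4 is known to be needed for genome activation at the 2-cell stage.

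All 13 listed genes of the mouse 2-cell burst had a sense model in the mouse library and 0 of 13 in the bovine one. Of the 8 listed bovine activation genes, 8 had a sense model in the bovine library and 4 in the mouse one (Zscan5b, Klf17, Nr5a2 and Pou5f1). Genes were matched by symbol alone, and whether a symbol exists in the other species' annotation was not checked. Zscan4a, Zscan4c and Zscan4d in mouse and ZSCAN4 in cattle, for example, carry different symbols. The counts across species therefore cannot be read as absent transcripts and do not test how the libraries differ. The lists were chosen with earlier results of these data known, so the counts in a list's own library are no test of its stage either. Markers of cumulus and granulosa cells had models for 6 of 12 genes in each library, sperm markers for 2 of 7 in mouse and 3 of 7 in cattle, and blood and immune markers for 3 of 6 in mouse and 2 of 6 in cattle. The part of such cells in the BAF models was not tested.

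All 10 subunits had a sense model in the mouse, against 52.3% of all 21923 protein-coding symbols of GENCODE release M21. The 10 were chosen with earlier results of these data known, so this share and the counts below do not test whether BAF genes differ from others. Of 21 further BAF subunits, 15 had a sense model in mouse. For cattle no share of all annotated genes was computed. Among mouse subunits, 8 of 10 had at least 2 models, against 51.2% of all named genes with a model, and 4 of 10 had at least 4, against 16.5%. In cattle 7 of 10 had at least 2 models, against 57.9%, and 4 of 10 had at least 4, against 21.1%. The median was 2 models per subunit in mouse and 3 in cattle, and 2 per named gene in both libraries. The genes with most models were Smarca2 with 6 and Smarca4 and Smarcc1 with 5 each in mouse, and SMARCA2 with 8 in cattle. SMARCD1 had a single model in both species.

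Subunit models matched a reference intron chain exactly in 13 of 30 cases in mouse (43.3%, exact Clopper-Pearson 95% interval 25.5% to 62.6%), against 55.4% of all sense models. In cattle the exact matches were 6 of 31 (19.4%, 7.45% to 37.5%), against 44.0% of all sense models. The bovine models included 11 that were contained in a longer reference transcript (35.5%, 19.2% to 54.6%), against 6.57% of all sense models. In mouse 3 of 30 were contained (10%, 2.11% to 26.5%), against 4.65%. These intervals cover counting error only and treat models of a gene as independent, which they are not. The closest reference transcript of every subunit model has a RefSeq name, while annotated mouse exons and coding regions in this report are those of GENCODE. Without an exact match were 3 of 10 subunits in mouse, against 27.5% of all named genes, and 5 of 10 in cattle, against 34.5%. Models of other class codes, antisense or intronic, that carry a subunit's name were not counted; 3 of 10 subunits had one in mouse, against 14% of named genes with a sense model, and 3 of 10 in cattle, against 9.65%.

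**Figure D1:**
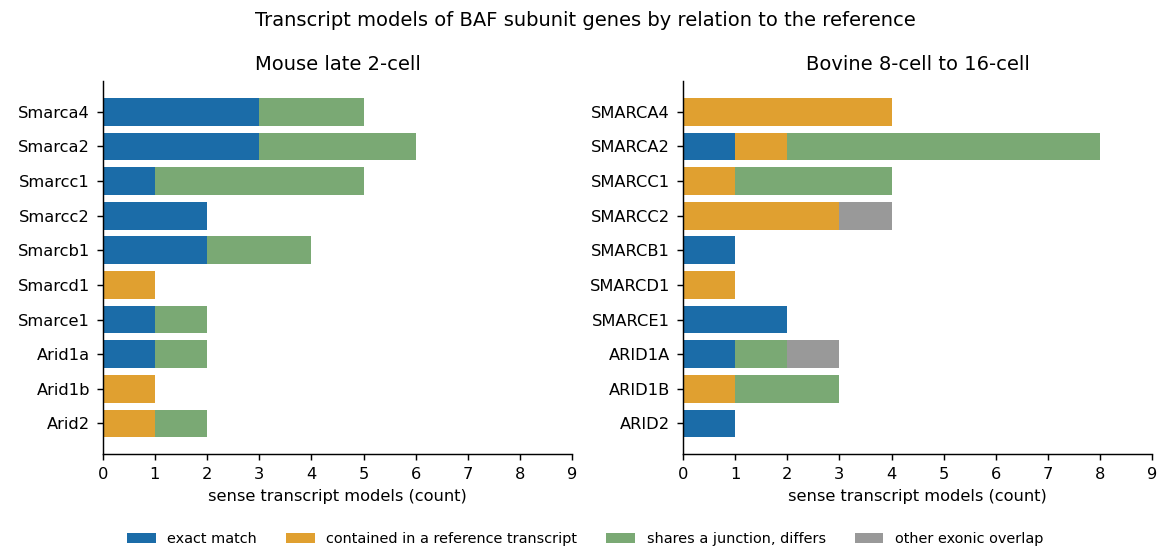
Sense transcript models of each BAF subunit gene (x axis, count) in the mouse late 2-cell library and the bovine 8-cell to 16-cell library, coloured by relation to the closest reference transcript. SMARCA4 had 3 exact matches in mouse and 4 contained models in cattle, while SMARCA2 had most models in both, 6 and 8.

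The promoters of the ATPase genes are shown because they mark where the full-length transcripts begin: 4 of 5 Smarca4 models started inside its window, and 0 of 6 Smarca2 models did. The sequences are from RefSeq on GRCm38.p6 (the build of mm10), plus strand, 250 bases before to 50 after the RefSeq start, with matches to the GC box GGGCGG on either strand in capitals. The windows are chr9:21615919-21616218 for Smarca4 and chr19:26604910-26605209 for Smarca2.
Smarca4 promoter: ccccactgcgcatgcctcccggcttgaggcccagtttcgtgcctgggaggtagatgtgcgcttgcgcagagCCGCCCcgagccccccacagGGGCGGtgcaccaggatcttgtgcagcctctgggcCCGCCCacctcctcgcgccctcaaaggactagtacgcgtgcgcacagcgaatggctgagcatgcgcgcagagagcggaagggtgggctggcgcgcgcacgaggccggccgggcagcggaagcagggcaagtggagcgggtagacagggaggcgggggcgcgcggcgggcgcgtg
Smarca2 promoter: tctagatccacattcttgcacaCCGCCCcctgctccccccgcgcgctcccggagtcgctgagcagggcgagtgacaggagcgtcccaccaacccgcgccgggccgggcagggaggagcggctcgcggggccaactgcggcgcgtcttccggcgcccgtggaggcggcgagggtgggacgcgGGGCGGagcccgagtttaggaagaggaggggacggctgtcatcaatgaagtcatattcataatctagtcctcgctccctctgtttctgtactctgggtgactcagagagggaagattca
The Smarca4 window held 3 GC boxes and the Smarca2 window 2, and 35.7% of 32851 annotated mouse promoter windows of this length held at least 1. Neither window held CCAAT or TATAAA on either strand, which 37.4% and 13.6% of all windows held. CG dinucleotides numbered 33 in the Smarca4 window and 29 in the Smarca2 window, against a median of 7 over all windows. The other subunits with such a window each held at least 1 GC box.

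Smarca4, the BRG1 ATPase, was assembled over its whole coding region in the mouse. The gene lies on the plus strand of mouse chromosome 9 from 21616169 to 21704230 (mm10, GENCODE). Of its 5 models, 3 had 34 exons and 5550, 5505 and 5502 spliced bases, and all 3 matched annotated coding transcripts exactly. They began at 21616133, 21616169 and 21616169, 36 bases upstream of the outermost annotated start or at that base. These 3 models covered 100%, 99.8% and 99.8% of the longest annotated coding region of 4851 bases. They differed by short in-frame stretches at the start of exons 29 and 30, shown here with the bases absent from some models in capitals (GENCODE transcript sequence; exon 29 at chr9:21686013-21686042 and exon 30 at chr9:21699800-21699829, plus strand).
Smarca4 exon 29 start: ACCCTGAAGgctatcgaggagggcacgctg
Smarca4 exon 30 start: CAGcagtggacgtcagctcagcgaggtgtt
Model 1 kept both stretches, model 3 lacked the 9 bases of exon 29, and model 4 lacked those and the 3 bases of exon 30. The stretch of exon 30 was also absent from model 5.

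The other Smarca4 models were partial. Model 2 shared the first 13 exons and then ended in a 1090-base last exon at 21647862 to 21648951 that overlapped no annotated exon. It covered the first 41.2% of the coding bases. Model 5 had 9 exons, began on the first base of annotated exon 26 at 21677450, 61.3 kb downstream of the outermost start, and covered the last 26.8% of the coding bases. Whether that base is a start of the RNA was not tested, as the files hold no reads.

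Bovine SMARCA4 was assembled in pieces, with 0 exact matches. Its 4 models on the plus strand of bovine chromosome 7 (bosTau9, as are all bovine positions) were all contained in longer reference transcripts. Model 1 had 10 exons from 15424652 to 15452088, model 2 had 5 exons from 15458216 to 15468334, and models 3 and 4 had 20 exons each from 15468414 to 15515093. Exon lengths were set beside those of the longest annotated mouse coding transcript, as a description of where in the gene a bovine model lies. Model 1 matched exons 5 to 10 of 34 in a row, model 2 exons 13 to 15, and models 3 and 4 exons 17 to 26. After the exon matching mouse exon 26, models 3 and 4 both held an exon of 99 bases (15488071 to 15488169). No mouse Smarca4 model had an exon between exons 26 and 27. The last exon of model 2 (56 bases), a gap of 79 bases and the first exon of model 3 (29 bases) together span 164 bases, the length of mouse exon 16. Their sixteenth exons had 109 and 106 bases and began 3 bases apart, the lengths of mouse exon 30 with and without its 3-base stretch, and both had an exon of 254 bases before it, the length of mouse exon 29 without the 9 bases.

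Smarca2, the BRM ATPase, had only short 3′ models in the mouse. The gene lies on the plus strand of mouse chromosome 19 from 26605050 to 26778322, and its longest coding transcript has 34 exons and 4803 coding bases. All 6 models had 7 or 8 exons and 1803 to 1929 spliced bases. They began at 26740909, 26745196, 26748170 and 26748401, which is 135.9 to 143.4 kb downstream of the outermost annotated start. Each covered coding bases only from position 4015 on, with 16.4% of the coding bases in model 2 and 15.3% in each of the other 5. SMARCA2 carries its bromodomain, which binds acetylated histone tails, near the C-terminus, and its ATPase domain lies further upstream in the protein. Smarca2 was the 1 subunit of 10 whose models all lacked the first 50% of the coding bases, against 7.71% of 11471 coding genes. Among genes of at least 4500 coding bases it was 1 of 5 subunits, against 25.3% of 569 genes.

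The Smarca2 starts lay at or close to annotated starts of short transcripts. GENCODE lists 46 Smarca2 transcripts, of which 29 begin downstream of the most upstream model and 24 of those are coding. Models 5 and 6 began 1 base, models 2 and 3 13 bases and model 4 19 bases upstream of the nearest annotated start. Model 6 had the intron chain of Smarca2-210, whose annotated coding region of 828 bases gives 275 codons. Model 1 began in a first exon of 173 bases (26740909 to 26741081) that overlapped no annotated exon, 4300 bases upstream of the nearest annotated start. Whether longer Smarca2 transcripts were present without being assembled was not tested, as the files hold no reads.

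The exons in which the short Smarca2 transcripts begin to share coding sequence are shown from GENCODE transcripts (mm10, plus strand). The start exon at chr19:26749852-26749947 was used by models 5 and 6, and the shared exon at chr19:26751824-26752041 by all 6. Capitals mark the first codon of a coding region annotated to begin there (Smarca2-210 and Smarca2-238). The exon at chr19:26759878-26759931, in capitals throughout, was absent from all models but model 2.
Smarca2 start exon: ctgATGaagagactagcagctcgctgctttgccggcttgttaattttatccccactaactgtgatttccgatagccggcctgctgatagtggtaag
Smarca2 shared exon: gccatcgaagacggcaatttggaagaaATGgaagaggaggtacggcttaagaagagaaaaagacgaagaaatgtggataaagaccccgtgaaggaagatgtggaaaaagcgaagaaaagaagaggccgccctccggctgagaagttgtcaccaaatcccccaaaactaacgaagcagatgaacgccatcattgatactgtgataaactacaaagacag
Smarca2 skipped exon: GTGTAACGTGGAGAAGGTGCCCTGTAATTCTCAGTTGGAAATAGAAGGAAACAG
The skipped exon has 54 bases, so its absence keeps the reading frame.

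Bovine SMARCA2 showed the same layout by exon length. Of its 8 models on the minus strand of bovine chromosome 8 (42369772 to 42549479), 7 lay at the 3′ end, with 5 distinct starts within 3.63 kb, against 4 distinct starts within 7.49 kb in mouse. Their spliced lengths were 1549 to 2214 bases. The shared exon of 218 bases was in 6 of 7 of these bovine models and in 6 of 6 in mouse, and exons of 106, 102, 133 and 143 bases downstream of it were each in 6 of 7 and 6 of 6. The 54-base exon was in 2 of 7 bovine models and 1 of 6 mouse models. A second exon of 96 bases, the length of the mouse start exon, was in bovine model 3, the exact match, and in mouse models 5 and 6. The 247-base first exon of bovine models 4 and 5 (42401257 to 42401503) contained the bases of that exon (42401257 to 42401352) and ended at the same splice site. The distance between the start and the 218-base exon was 0.954 to 3.42 kb in the 6 bovine models and 3.42 to 10.9 kb in mouse. Model 4 ended in a last exon of 1695 bases right after the 54-base exon.

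The 5′ part of bovine SMARCA2 held 1 model, a contained model of 2 exons and 360 bases, 133.0 kb upstream of the nearest 3′ model. Its second exon had 261 bases, the length of mouse exon 2. The mouse library had no model in that part.

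**Figure D2:**
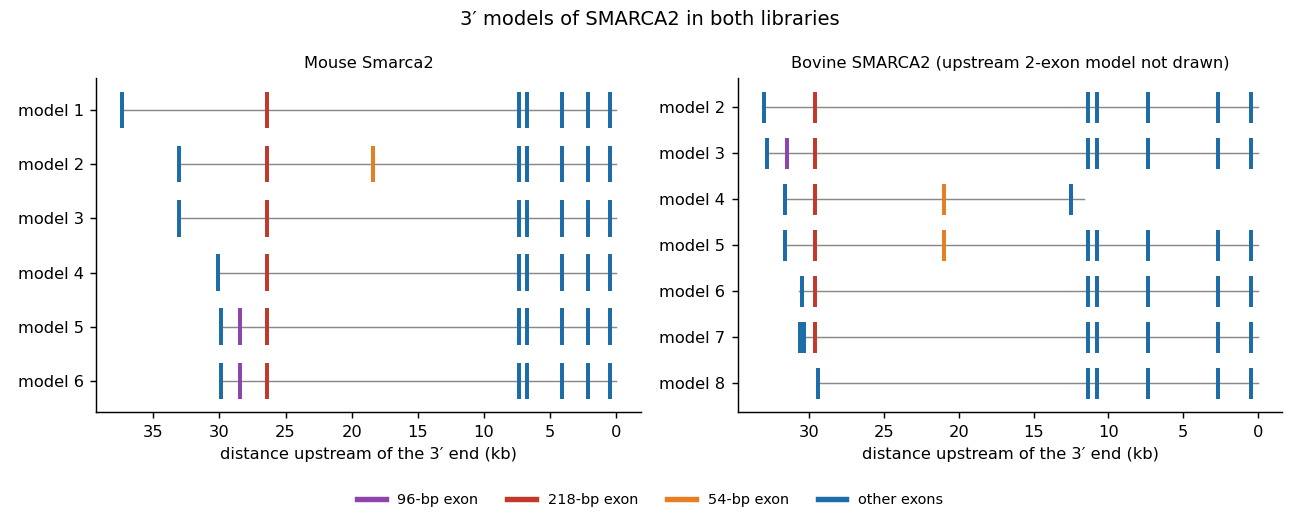
Exons (vertical marks) of the 3′ models of SMARCA2 in mouse (left, 6 models) and cattle (right, 7 models) by distance upstream of the 3′ end in kb, with the exons of 96, 218 and 54 bases coloured. The models of both species share the 218-base exon in all but bovine model 8, and the 54-base exon appears in 1 mouse and 2 bovine models.

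Smarcc1 and Smarcc2, the paired scaffold subunits around which the core assembles, were complete in the mouse. Smarcc1 (chromosome 9, plus strand, 110117708 to 110240178) had 5 models that all began at 110132024, the RefSeq start. Model 1, the exact match, had 28 exons and 5673 bases and covered 100% of 3312 coding bases. Models 2 and 3 read 238 bases past exon 27 and ended at 110235291, the annotated end of a shorter Smarcc1 transcript, covering 97.2% and 95.4%. Model 3 also lacked exon 19 of 60 bases, which keeps the frame and is printed here because the junction that skips it is not in GENCODE (GENCODE, chr9:110190903-110190962, plus strand, all bases skipped).
Smarcc1 skipped exon: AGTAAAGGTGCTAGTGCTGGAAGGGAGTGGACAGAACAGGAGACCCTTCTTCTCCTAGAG
Models 4 and 5 ended early, after 23.8% and 12.0% of the coding bases, model 4 in an extended exon 8 and model 5 in a last exon at 110142012 to 110142249 that overlapped no annotated exon.

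Smarcc2 (chromosome 10, plus strand, 128459248 to 128490482) had 2 mouse models, both exact matches with 28 exons. They had 5395 and 4935 spliced bases and covered 99.9% and 100% of 3639 coding bases. They differed by 3 coding bases and by their ends, and model 1, matched to RefSeq, had 1 intron that GENCODE lacks.

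In cattle both scaffold genes lacked an exact match and were assembled in overlapping or adjoining pieces. SMARCC1 on chromosome 22 (plus strand, 51967044 to 52083687) had models of 20, 19, 14 and 5 exons. Model 1 matched mouse exons 3 to 20 of 28 in a row, model 2 exons 11 to 25, model 3 exons 15 to 25 and model 4 exons 23 to 25. The first exons of models 2, 3 and 4, of 125, 72 and 115 bases, had the whole length of mouse exons 11, 15 and 23. SMARCC2 on chromosome 5 (plus strand, 57140955 to 57161832) had models of 26 and 24 exons that matched mouse exons 2 to 25 and 2 to 17 in a row. The 119-base last exon of model 2, a gap of 50 bases and the 213-base first exon of model 4 together span 382 bases, the length of mouse exon 26. The 2-exon model 1 joined the first exon region to the last and shared no splice junction with the reference, going by its class code.

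Smarcb1 (INI1), which anchors the complex to the nucleosome, had full-length models in both species. The mouse gene (chromosome 10, minus strand, 75896769 to 75921617) had 4 models. Models 1 and 2 were exact matches of 9 exons with 1657 and 1630 bases, and covered 100% and 97.7% of 1155 coding bases. They differed by 27 in-frame bases at the end of exon 2, in capitals here (GENCODE, chr10:75916773-75916911, minus strand).
Smarcb1 second exon: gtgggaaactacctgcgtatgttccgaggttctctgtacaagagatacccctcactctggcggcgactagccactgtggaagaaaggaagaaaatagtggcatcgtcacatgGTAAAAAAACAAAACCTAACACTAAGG
Models 3 and 4 both began at 75912012, 9.61 kb downstream of the outermost annotated start and 2150 bases downstream of the nearest one. They covered the last 68.7% of the coding bases. Model 3 began in an exon 4 extended upstream by 356 bases, and model 4 had 1 intron that GENCODE lacks. The single bovine SMARCB1 model, on chromosome 17 (plus strand, 71241924 to 71259044), was an exact match of 9 exons and 1642 bases. Its second exon had 112 bases, the length in mouse without the 27 bases, and exons 3 to 8 had the mouse lengths.

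Smarce1 (BAF57), an HMG-box subunit, also had exact matches in both libraries. The mouse gene (chromosome 11, minus strand, 99209047 to 99231017) had model 1 with 11 exons and 2673 bases, over 100% of 1233 coding bases. Model 2 had 7 exons and began in a 386-base first exon at 99219946 to 99220331 that overlapped no annotated exon, leaving the last 80.8% of the coding bases. It began 500 bases downstream of the nearest annotated start. Bovine SMARCE1 on chromosome 19 (minus strand, 40833649 to 40856746) had 2 exact matches of 11 exons, with 2925 and 2409 bases. Model 1 matched mouse exons 2 to 10 in a row, and model 2 exons 2 to 9.

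Smarcd1 (BAF60A), which links the complex to transcription factors, had a single 2-exon model in both species. The mouse gene (chromosome 15, plus strand, 99702129 to 99713991) had 1 model of 2 exons and 520 bases, contained in the annotated transcript of 13 exons. It started 38 bases inside the annotated start and covered the first 23.6% of 1545 coding bases. Bovine SMARCD1 on chromosome 5 (minus strand, 29809153 to 29810323) had 1 model, also of 2 exons, with 500 bases. The second exon had 188 bases in both species and ended in mouse at the end of annotated exon 2, so that exon is shown (GENCODE, chr15:99703106-99703293, plus strand, no base marked).
Smarcd1 second exon: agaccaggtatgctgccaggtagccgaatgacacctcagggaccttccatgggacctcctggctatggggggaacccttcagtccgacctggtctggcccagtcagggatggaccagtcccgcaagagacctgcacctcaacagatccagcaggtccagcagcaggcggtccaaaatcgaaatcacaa
Exons 3 to 13 were in no model of mouse Smarcd1.

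The ARID subunits, which define the complex type and bind DNA, lacked the start of their coding regions in the mouse. Arid1a (chromosome 4, minus strand, 133679008 to 133756769) had 2 models of 20 exons, with 8109 and 7075 bases. Model 2, the exact match, began 24 bases before the end of the first coding exon of 1143 bases, and covered 83.7% of 6861 coding bases. Model 1 began upstream in a 1058-base first exon at 133755088 to 133756145 that overlapped no annotated exon, skipped the first coding exon and covered 83.3%. Bovine ARID1A on chromosome 2 (minus strand, 126408497 to 126477903) had an exact match of 20 exons and 7176 bases (model 2) whose first exon had 97 bases. The 670-base last exon of model 3 and the 222-base last exon of model 1 adjoined with a gap of 0 and together span 892 bases, the length of mouse exon 18. Model 1 is not a continuation of model 3. It had only 2 exons, began upstream of model 3 in an exon at 126477638 to 126477903, and shared no splice junction with the reference, going by its class code.

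Arid1b (chromosome 17, plus strand, 4994332 to 5347656) had 1 mouse model of 19 exons and 6053 bases, beginning 1 base before annotated exon 2. The model began 46.2 kb downstream of the outermost annotated start but 1 base downstream of the nearest annotated start. It covered 77.4% of 6888 coding bases. Bovine ARID1B on chromosome 9 (plus strand, 93533388 to 93841170) had 3 short models of 4, 4 and 6 exons with 1177, 627 and 1617 bases. Model 3 matched mouse exons 15 to 19 in a row, and the 5′ models 1 and 2 shared their first 3 exons and ended at different last exons.

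Arid2, the ARID subunit of PBAF, differed between the libraries. In mouse (chromosome 15, plus strand, 96287518 to 96404992) it had 2 overlapping models. Model 1 had 14 exons, began 79 bases upstream of exon 2 and read 414 bases past exon 15, while model 2 had 7 exons and began on the first base of exon 15. They covered 85.0% and 65.1% of 5484 coding bases, and 98.3% between them. Model 1 covered coding bases from position 93 on. Bovine ARID2 on chromosome 5 (minus strand, 34309326 to 34518038) had 1 model, an exact match of 21 exons and 7115 bases, and 18 of its exons had the length of a mouse exon in order.

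**Figure D3:**
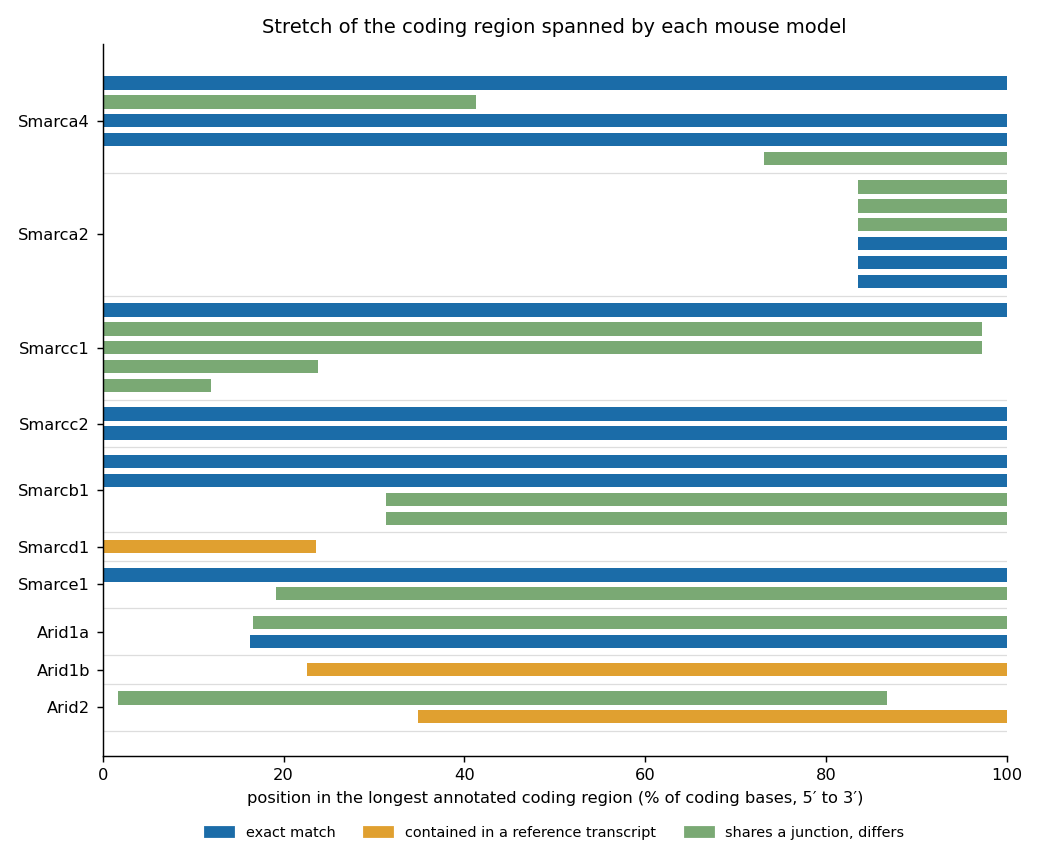
Stretch of the longest annotated coding region (x axis, % of coding bases, 5′ to 3′) between the first and the last coding base of each of the 30 mouse models, by gene. All 6 Smarca2 models lie at the 3′ end, the ARID1 models lack the 5′ end, and Smarca4, Smarcc1, Smarcc2, Smarcb1 and Smarce1 each have a model over the whole region.

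Across the subunits, 5 of 10 mouse genes had a model over at least 90% of the longest annotated coding region, against 76.2% of 11471 coding genes. Coding length differed: of the 5 subunits with at least 4500 coding bases, 1 had such a model (Smarca4), against 25.8% of 569 genes of that length. Starts inside the RefSeq promoter window were found for Smarca4, Smarcb1, Smarcc1, Smarcc2 and Smarcd1, 5 of the 8 members with a window. The share over all genes with a window was not computed, so whether 5 of 8 is high or low for this library is unknown. The nearest model start was 0.624 kb downstream of the RefSeq start for Arid1a, 45.5 kb for Arid1b and 135.7 kb for Smarca2. No window was used for Smarce1 or Arid2.

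Chimeric transcripts, the subject of the series, can begin or end in exons outside the annotation. Counted over models that shared a splice site with their gene without matching a reference chain, 3 of 17 in mouse had an unannotated first exon (17.6%, 3.8% to 43.4%), against 28.7% of all such models. They belonged to Smarca2, Smarce1 and Arid1a, 3 of 10 members, against 16.6% of 13053 genes. Unannotated last exons were in 2 of 17 mouse models (Smarca4 and Smarcc1, 2 of 10 members), against 8.85% of models and 6.17% of genes. In cattle, where the library's own exact matches served as the annotation, 5 of 7 such models had an unannotated first exon (71.4%, 29% to 96.3%), against 26.1% of all such models. Of these 5 models 4 belonged to SMARCA2 and 1 to ARID1A, which are 2 of the 5 members with an exact match, against 16.5% of 8273 such genes. The 4 SMARCA2 first exons were not all separate. That of model 8 (42399150 to 42399285) directly adjoined the 218-base exon (42399286 to 42399503), and models 6 and 7 shared a start at 42400457. With the exact matches widened by 100 bp, 3 models in place of 5 had an unannotated first exon. An unannotated last exon was in 1 of the 7 bovine models (of SMARCA2), against 19.7% of models and 13.5% of genes. Repeats were not annotated here, so whether any of these exons lies in a transposable element was not tested.

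**Figure D4:**
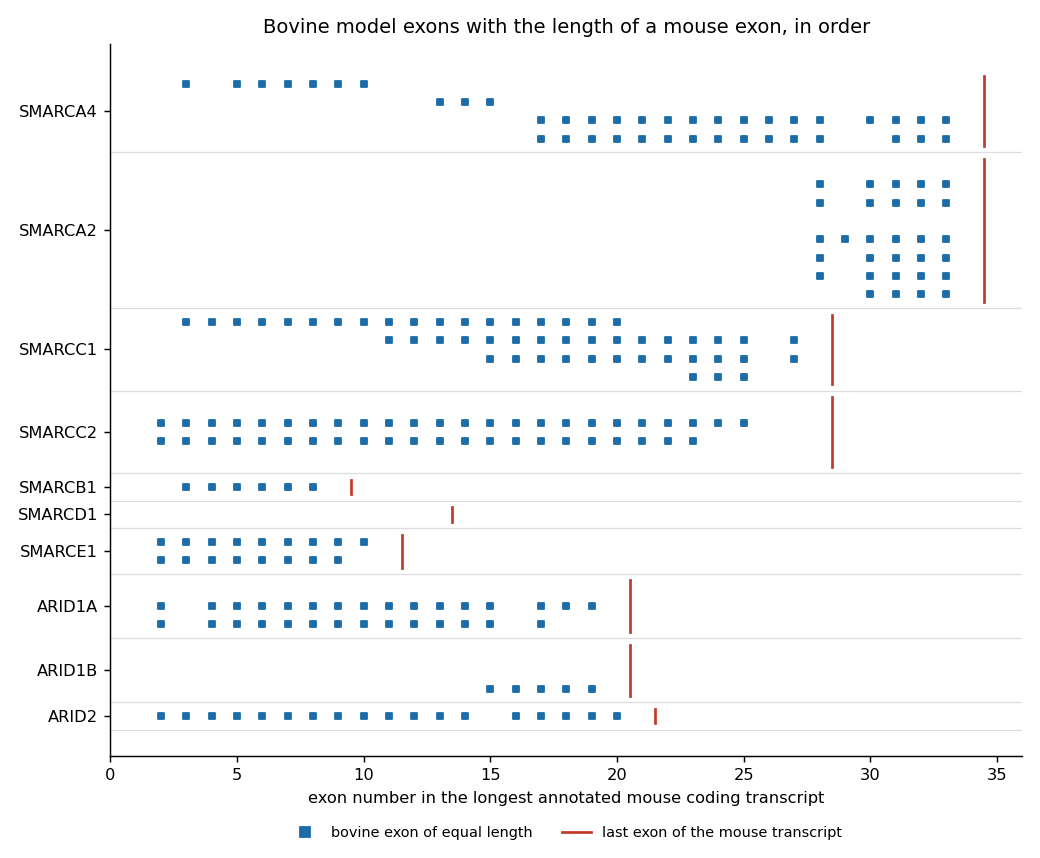
Exons of each bovine model (rows, grouped by gene) whose length equals that of a mouse exon in the same order (squares, x axis: exon number in the longest annotated mouse coding transcript), for models with a run of at least 3 equal exons. SMARCA4 falls into pieces at exons 3 to 10, 13 to 15 and 17 to 33, SMARCA2 sits at exons 28 to 33, and SMARCC2 and ARID2 run from exon 2 on.

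Other subunits of BAF, PBAF and the non-canonical complex had a sense model for 15 of 21 genes in mouse and 17 of 21 in cattle. Brd9, the bromodomain subunit of non-canonical BAF, led in mouse with 10 models, followed by the PHD-finger subunit Dpf3 with 4 and by Dpf2, Smarcd2 and Ss18 with 3 each. In cattle SS18 led with 6, followed by BCL7B, BRD7, DPF2, DPF3 and SMARCD2 with 4 each. Pbrm1, the polybromo subunit of PBAF, had 2 models in each species, over 97.2% of the coding bases in mouse. Smarcd3, Actl6b, Dpf1 and Bcl11b had no model in either library, and Bcl7a and Bicra had none in mouse, against 2 and 1 in cattle. Of the 15 with a model in mouse, 12 had one over at least 90% of the coding bases, against 76.2% of 11471 coding genes.

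The other remodeller families were also represented. For comparison, 52.3% of all 21923 GENCODE protein-coding symbols had a sense model in mouse. ISWI genes had models for 11 of 11 in each library, led in mouse by Baz2a with 11, Baz2b with 8 and Cecr2 with 6, and in cattle by BAZ2A with 7, CECR2 with 5 and BAZ1A, BPTF and RSF1 with 4 each. CHD genes had models for 7 of 9 in each, led by Chd4 with 6, Chd8 with 5 and Chd6 and Chd7 with 4 each in mouse and by CHD6 with 8, CHD2 with 6 and CHD7 and CHD8 with 4 each in cattle. Chd2 and Chd5 had none in mouse, and CHD3 and CHD5 none in cattle. INO80 and SRCAP complex genes had models for 20 of 20 in mouse, led by Nfrkb with 8 and Actr6 and Ep400 with 6 each, and for 19 of 20 in cattle, led by INO80B with 8 and INO80E and TFPT with 5 each. SRCAP was the gene without a bovine model, and mouse Srcap had 5. In the ISWI list 5 of 11 mouse genes had a model over at least 90% of the coding bases, in the CHD list 2 of 7 and in the INO80 and SRCAP list 14 of 20. The share was 76.2% of all 11471 coding genes and 25.8% of the 569 with at least 4500 coding bases. Coding length was not taken into account for these lists, so differences between the families were not tested.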

How the data were processed

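Each deposited file holds transcript models that StringTie built, per the file headers, with exon positions, class code, closest reference transcript and start group, and with no count, coverage or score. Builds were mm10 and bosTau9, per the submitters' processing notes. The aligner, filters and tool versions: not given in the sources used here. Sense models had class code =, c, k, m, n, j or o. GENCODE release M21 gave mouse exons and coding regions; 13053 of 14090 mouse symbols matched it. A terminal exon was unannotated when it overlapped no exon of GENCODE (mouse) or of the library's exact matches (cattle) on its strand, in models of at least 2 exons that share a splice site with the gene. Starts within 50 bp counted as 1. Bovine and mouse exons were matched by length alone. Python 3.11.15 and scipy 1.17.1 were used, and the code was tested on simulated truncated transcripts. Members and lists were chosen with earlier results of these data known. All 10 members and their models are named; of the other lists, the 3 genes with most models (with ties) and those without a model, with Pbrm1 and mouse Srcap added after their values were seen. The depth behind each model is unknown.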

Additional observations from a re-analysis of the deposited data

Results flagged for a closer look

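Models that carry a subunit name but another class code lie outside the counts above and were found in both libraries, 4 in mouse and 4 in cattle. They belonged to 3 of 10 members in mouse, against 14% of 14090 named genes with a sense model, and to 3 of 10 in cattle, against 9.65% of 13374. They stand here because the comparisons above leave them out, and no test was made of whether members carry more of them than other genes. In mouse they were an antisense model of 2 exons and an opposite-strand model within an intron at Smarcc1, and 1 intronic model each at Smarcc2 and Arid2. In cattle they were an antisense model of 2 exons at SMARCC2 and an opposite-strand model of 6 exons at ARID1A. ARID1B had an antisense model of 3 exons and an opposite-strand model of 2 exons within an intron. The opposite-strand ARID1A model had exon borders at 126411594 and 126450273, at or beside the borders of ARID1A exons at 126411594 and 126450274. Whether it is a separate transcript or a model set on the wrong strand was not tested.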

How the results depend on the processing

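Of 38 alternative values, 31 stayed within 1.5 times the reported count or within its interval and 7 did not. With exact matches alone, 7 mouse and 5 bovine members had a model. Without contained models the bovine models numbered 20 in place of 31. With the exact matches of the library as annotation, 6 mouse models had an unannotated first exon in place of 3, and with these widened by 100 bp 6 in mouse and 3 in cattle, in place of 5. Measured on any annotated coding transcript instead of the longest, 22 mouse models in place of 11, and 8 members in place of 5, covered at least 90%. Unnamed models added none to the 30. No paired analysis was possible because each species had 1 library. Depth limits every absence: without read counts, a missing exon or transcript was not assembled, and no floor can be given.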
